A study of Homo sapiens with 4 samples.

Results

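The ephrins are cell-surface ligands and the Eph proteins are their receptors. The 10 genes described here were taken by name, as 5 ephrin ligand genes (EFNA1, EFNA4, EFNA5, EFNB1 and EFNB2) and 5 Eph receptor genes (EPHA2, EPHA3, EPHA4, EPHB2 and EPHB4), out of 31907 gene names with a count in any library. HGC-27, a human gastric cancer cell line, was treated for 48 h with PBS, the carrier control, or with 200 ng/ml rIL-17B, a recombinant form of the cytokine IL-17B. There were 2 RNA-seq libraries per treatment, and the study used them to ask which transcripts differ in cells exposed to IL-17B. All libraries came from 1 cell line, and nothing in the labels says that the replicates came from separate cultures, so p-values measure only the spread between these libraries, which may be technical.

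Eph receptors form the largest family of receptor tyrosine kinases and are switched on by ephrins held on the membrane of a neighbouring cell. Ephrin-A ligands are tied to the membrane by a lipid anchor and mostly bind EphA receptors, whereas ephrin-B ligands span the membrane and mostly bind EphB receptors. Signals run into the receptor-bearing cell and also back into the ligand-bearing cell, and in the gut lining they are known for keeping cells in their place and for being altered in carcinomas.

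The libraries held between 12888029 and 17555879 counts, and values are given as CPM, the count divided by the library total and multiplied by 1e+06. A count of 0 allows up to 3 counts, which is 0.171 to 0.233 CPM in these libraries, and this floor and all counting intervals cover counting error only, since PCR copies are not independent molecules. Counting intervals leave out the spread between libraries. A ratio to PBS whose counting interval lies clear of 1 is therefore not shown to differ beyond that spread. Replicate 1 of rIL-17B stood apart from the other 3 libraries: over the 16361 genes tested, its log2 ratio to the PBS mean ran from -4.28 at the 5th percentile to 0.96 at the 95th, against -0.71 to 0.40 for rIL-17B replicate 2. FN1, which encodes fibronectin, was at 33131 and 32458 CPM with PBS and at 149 and 27450 CPM with rIL-17B, and COL1A2 had 16 counts in rIL-17B replicate 1. For every value of that library given here, treatment with rIL-17B cannot be told apart from other source material. The 7 mesenchymal markers summed to 54688 and 53725 CPM with PBS, to 1137 CPM in rIL-17B replicate 1 and to 45748 CPM in the other treated library. The 7 epithelial markers summed to 784 and 792 CPM with PBS and to 1825 and 1007 CPM with rIL-17B. CDH1, the epithelial cadherin, was at 0.44 to 0.75 CPM throughout, and KRT8 and KRT18 made up most of the sum. In rIL-17B replicate 1 the list was split, with 4 markers above the PBS mean and 3 below, KRT19 among the latter at 0.0684 CPM against 2.96 and 3.34 CPM with PBS. The 7 gastric lining markers summed to 1.07 and 2.72 CPM with PBS and to 0.547 and 1.31 CPM with rIL-17B, with TFF1, GKN2 and PGC at 0 in every library and MUC6 at 7 to 19 counts. The 8 neural and glial markers summed to 313 and 494 CPM with PBS and to 17.3 and 225 CPM with rIL-17B, with OLIG1 and OLIG2 at 0 in rIL-17B replicate 1 and SOX10 at 0 in every library. The 5 endothelial markers summed to 27.5 and 35.5 CPM with PBS and to 1.09 and 22.6 CPM with rIL-17B. The 8 monocyte and leukocyte markers summed to 8.48 to 14.3 CPM over the 4 libraries, and 5 of them were at 0 in rIL-17B replicate 1, where CSF1R alone gave 8.14 of the 8.48 CPM, against 3.90 and 5.59 CPM with PBS. These lists differed between the libraries, not all in the same direction, and their part in any of the values below was not tested. In bulk RNA fewer cells of a type and less RNA per cell cannot be told apart.

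The base sequence just before the start of 2 of the genes is shown because EFNB2 and EPHB4 are a well-known ligand and receptor pair, and because in rIL-17B replicate 1 the ligand lay 26.2-fold below the PBS mean while the receptor was not lower. Each run is the 250 bases before the RefSeq transcript start, 5′ to 3′ on the strand of the gene, in GRCh38.p14, at chr13:106535663-106535912 for EFNB2 and chr7:100827524-100827773 for EPHB4, both on the minus strand. Capitals mark the GC box, the letters GGGCGG or CCGCCC, a motif bound by Sp1.
EFNB2: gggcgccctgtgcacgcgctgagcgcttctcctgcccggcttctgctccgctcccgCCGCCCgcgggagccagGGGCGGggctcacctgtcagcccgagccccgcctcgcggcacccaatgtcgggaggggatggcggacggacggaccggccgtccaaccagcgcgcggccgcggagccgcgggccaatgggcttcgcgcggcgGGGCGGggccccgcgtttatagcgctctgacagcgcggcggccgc
EPHB4: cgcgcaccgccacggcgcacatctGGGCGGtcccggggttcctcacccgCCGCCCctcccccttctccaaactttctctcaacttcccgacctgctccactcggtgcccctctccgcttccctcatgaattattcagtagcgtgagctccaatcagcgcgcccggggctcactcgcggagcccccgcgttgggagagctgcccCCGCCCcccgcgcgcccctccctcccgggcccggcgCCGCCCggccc
The EFNB2 run held 3 GC boxes, 40 CpG and 78.4% G or C, and the EPHB4 run held 4 GC boxes, 29 CpG and 72.8% G or C. Over 35116 promoter regions of the same length in the RefSeq table, 42.6% held a GC box on either strand, and the median was 11 CpG and 58% G or C. The letters TATAAA, searched on both strands, were found once in the EFNB2 run and not in that of EPHB4, and in 10.7% of all regions. All 10 genes matched the table, with 12 starts, of which 11 held a GC box and 1 held TATAAA. The starts of EPHB2, at 22710838 and 22710839 on chromosome 1, are adjacent, so the same GC box is counted for both. A match is a description of the letters and not of binding.

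With both rIL-17B libraries set against both PBS libraries, edgeR's quasi-likelihood test called none of the 10 genes at an adjusted p under 0.05, as it called 0 of the 16361 genes tested (0.0%). At an unadjusted p under 0.05 it picked 1 of the 10, EFNA1, against 1.38% of all genes tested (226 genes), and DESeq2 likewise called 0 at its adjusted p and picked 1 of the 10, EFNA1, at its unadjusted p, against 1.71% of the 31907 genes it was run on (547 genes). The 10 genes were chosen with earlier results of these data known, EFNA1 among them. The count of 1 and the unadjusted p of EFNA1 are therefore a description and not a test of the family. All 10 genes passed the filter on low counts, and 9 were listed in every library, EPHA3 being missing from rIL-17B replicate 1. Of the 10 log2 fold changes 4 were above 0 and 6 below, with a median of -0.46 against -0.03 over all genes tested. An exact permutation test of 2 against 2 libraries cannot go below p = 0.333.

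**Figure D1:**
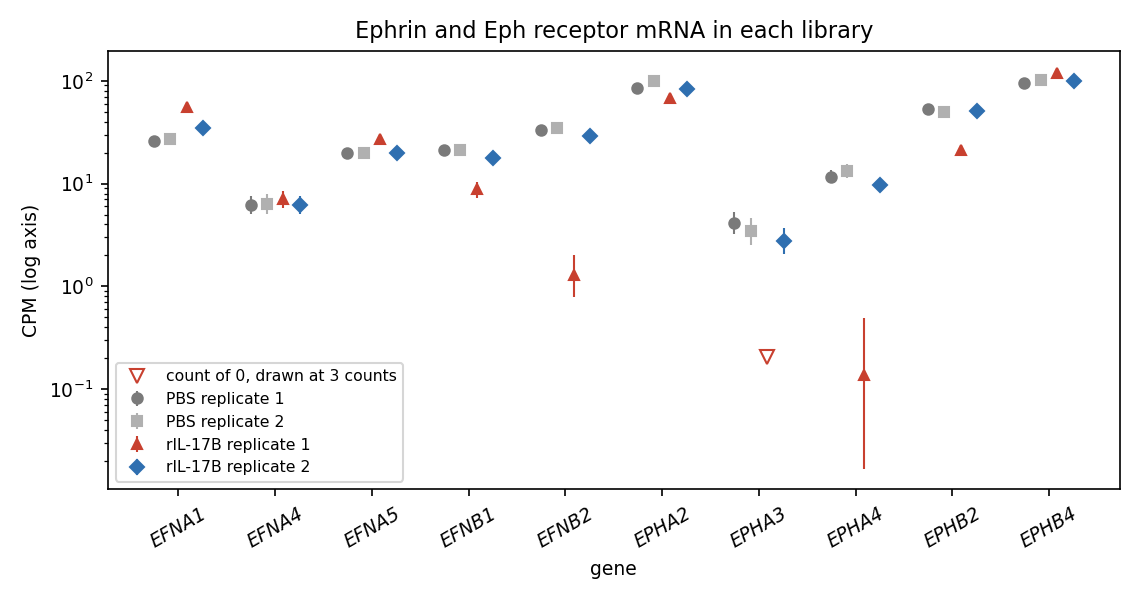
CPM (log axis) of each ephrin and Eph gene in the 4 libraries, with 95% Poisson counting intervals as bars, and an open triangle at the floor of 3 counts where the count was 0. In rIL-17B replicate 1 EFNB2 was at 1.30 CPM and EPHA4 at 0.137 CPM, whereas rIL-17B replicate 2 was within 2-fold of both PBS libraries for all 10 genes.

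Among the ephrin-A ligands EFNA1 was above both PBS libraries in each of the treated libraries. EFNA1, on chromosome 1 from 155127460 to 155134857, encodes ephrin-A1, a ligand of EPHA2 first isolated as a gene induced by tumour necrosis factor. It was at 25.8 and 27.3 CPM with PBS and at 55.8 and 34.9 CPM with rIL-17B, from 352 to 815 counts per library. The groups did not overlap, and rIL-17B replicate 1 was the highest of the 4. The PBS mean was 26.5 ± 1.08 CPM and the rIL-17B mean 45.3 ± 14.8 CPM (SD, n = 2 each). In edgeR the log2 fold change was 0.69 (SE 0.23, 95% interval 0.03 to 1.34), with an unadjusted p of 0.0445 and an adjusted p of 0.661.

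Set against the pooled counts of the PBS libraries, EFNA1 was 2.11 times as high in rIL-17B replicate 1 (95% counting interval 1.91 to 2.33) and 1.32 times in rIL-17B replicate 2 (1.18 to 1.47). Those ratios stood at percentiles 97.1 and 94.9 of all genes tested in the respective library. Without rIL-17B replicate 1 the log2 fold change was 0.39 (SE 0.12, edgeR adjusted p = 0.0556), and without rIL-17B replicate 2 it was 0.94 (SE 0.12, edgeR adjusted p = 1.04e-14). In both of these fits the lone treated library was assumed to vary like the PBS pair.

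EFNA5, on chromosome 5 from 107376889 to 107670895, encodes ephrin-A5, which binds EPHA3 tightly and guides growing axons. It was at 19.7 and 19.8 CPM with PBS and at 27.2 and 19.9 CPM with rIL-17B. Only rIL-17B replicate 1 stood clear of the others, with a ratio to the PBS mean at percentile 73.1 of all genes tested there. The pooled ratio was 1.37 (1.21 to 1.57) in that library and 1.01 (0.878 to 1.15) in rIL-17B replicate 2, so the latter could not be told from PBS at this depth. The log2 fold change was 0.17 (SE 0.17, edgeR adjusted p = 0.679). EFNA4, on chromosome 1 from 155063731 to 155069553, encodes another lipid-anchored ligand of EphA receptors and was at 6.22 and 6.36 CPM with PBS and at 7.05 and 6.21 CPM with rIL-17B. Its groups overlapped, and its log2 fold change of 0.00 had a 95% interval of -0.64 to 0.64 (edgeR adjusted p = 0.998). It shares 189 exon bases with AL691442.1 on the same strand, so its counts are uncertain.

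Both ephrin-B ligands among the 10 were lower in the treated libraries than in any PBS library, as were 27.5% of all genes tested. The gap was far larger in replicate 1 than in replicate 2. Without rIL-17B replicate 1 the log2 fold change was -0.22 for EFNB2 and -0.24 for EFNB1. EFNB2, on chromosome 13 from 106489731 to 106535662, encodes ephrin-B2, which marks arteries and is the preferred ligand of EPHB4. It was at 33.4 and 34.7 CPM with PBS and at 1.30 and 29.3 CPM with rIL-17B, with 531, 447, 19 and 515 counts. The 19 counts of rIL-17B replicate 1 lay 26.2-fold below the PBS mean, and the other treated library lay just under both PBS libraries. Against pooled PBS counts the ratios were 0.0383 (0.0229 to 0.0601) and 0.864 (0.775 to 0.962). The PBS mean was 34.0 ± 0.917 CPM and the rIL-17B mean 15.3 ± 19.8 CPM (SD, n = 2 each), and the log2 fold change of -1.16 had an interval of -5.35 to 3.03 (SE 1.45, edgeR adjusted p = 0.717). The treated libraries lay far apart, and the interval spans 0 widely. Its exons share 1313 bases with the antisense gene AL138689.2, which no library listed. Strand use in counting is not given in the sources used here, so reads of the pair cannot be told apart.

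EFNB1, on chromosome X from 68828997 to 68842147, encodes ephrin-B1, a ligand of EphB receptors needed in the shaping of the face and skull. It was at 21.1 CPM in both PBS libraries and at 8.76 and 17.9 CPM with rIL-17B. Replicate 1 was 2.41-fold below the PBS mean, and its pooled ratio was 0.415 (0.340 to 0.503), while that of replicate 2 was 0.847 (0.737 to 0.972). In edgeR the log2 fold change was -0.71 (SE 0.45, 95% interval -2.00 to 0.58, adjusted p = 0.661).

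The 3 EphA receptor genes among the 10 were each below both PBS libraries in either treated library, as were 27.5% of all genes tested. The amounts differed widely. Of the EphA receptors outside the 10, EPHA7 and EPHA1 were also below both PBS libraries in either treated library, EPHA1 at 17 counts or fewer. The groups of EPHA5 overlapped, and EPHA6, EPHA8 and EPHA10 had at most 1 count in a library. EPHA2, on chromosome 1 from 16124337 to 16156087, encodes the main receptor of ephrin-A1 and is often abundant in carcinomas. It was at 84.4 and 100.2 CPM with PBS and at 67.9 and 83.9 CPM with rIL-17B, a gap of less than 1 CPM between the closest libraries of the groups. The log2 fold change was -0.34 (SE 0.20, 95% interval -0.93 to 0.24, edgeR adjusted p = 0.661), and the pooled ratios were 0.742 (0.689 to 0.799) and 0.917 (0.860 to 0.978). The PBS libraries themselves differed beyond counting error, with intervals of 80.0 to 89.1 and 94.9 to 105.9 CPM. The intervals of the pooled ratios do not cover that difference.

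EPHA4, on chromosome 2 from 221418027 to 221574202, encodes a receptor that binds ephrins of both classes. It was at 11.6 and 13.3 CPM with PBS and at 0.137 and 9.68 CPM with rIL-17B, with 185, 171, 2 and 170 counts. The 2 counts of rIL-17B replicate 1 gave a pooled ratio of 0.0111 (0.00134 to 0.0403), whereas rIL-17B replicate 2 had a ratio of 0.783 (0.648 to 0.943). The log2 fold change was -1.34 (SE 1.75, 95% interval -6.38 to 3.69, edgeR adjusted p = 0.723). EPHA4 shares 353 exon bases with the antisense gene AC079834.2, which had 4, 2, 0 and 4 counts.

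EPHA3, on chromosome 3 from 89107524 to 89482134, encodes the receptor that binds ephrin-A5. It had 66 and 45 counts with PBS, 0 in the first rIL-17B library and 49 in the other, which is 4.15, 3.49, 0 and 2.79 CPM. Against the floor of 3 counts per library, rIL-17B replicate 1 was at least 18.6-fold lower than the PBS mean. In rIL-17B replicate 2 the ratio of 0.724 had an interval of 0.506 to 1.02, so a difference there was not detectable at this depth. The edgeR adjusted p for both treated libraries together was 0.716.

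Of the EphB receptors EPHB2 was low in rIL-17B replicate 1 alone, and EPHB4 was not low in any library. EPHB2, on chromosome 1 from 22710839 to 22921500, encodes a receptor that positions cells along intestinal crypts under Wnt signalling. It was at 53.4 and 49.3 CPM with PBS and at 21.2 and 50.3 CPM with rIL-17B, so the groups overlapped. Replicate 1 of rIL-17B was 2.42-fold below the PBS mean, with a pooled ratio of 0.411 (0.362 to 0.465), and the ratio of 0.975 (0.896 to 1.06) in replicate 2 could not be told from PBS. The log2 fold change was -0.57 (SE 0.51, 95% interval -2.04 to 0.91, edgeR adjusted p = 0.668).

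EPHB4, on chromosome 7 from 100802565 to 100827521, encodes the receptor of ephrin-B2 and marks veins. It was at 94.6 and 102 CPM with PBS and at 119.5 and 98.5 CPM with rIL-17B. The groups overlapped, and the highest value was that of rIL-17B replicate 1, with a pooled ratio of 1.22 (1.15 to 1.30). By its ratio to the PBS mean EPHB4 stood there at percentile 61.6 of all genes tested. With TMM-normalized CPM that library was 1.07-fold above the higher PBS library. The log2 fold change was 0.07 (SE 0.11, 95% interval -0.25 to 0.39, edgeR adjusted p = 0.749). Its exons share 69 bases with SLC12A9, which had 469 to 609 counts.

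**Figure D2:**
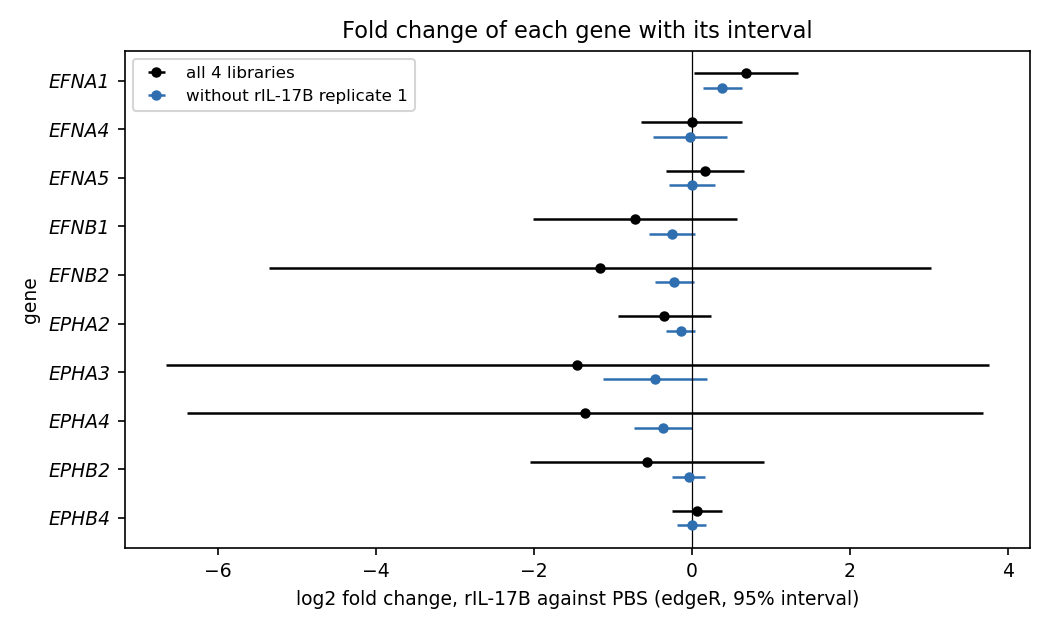
Log2 fold change of rIL-17B against PBS for each gene from edgeR, with its 95% interval as a bar. Black marks the fit with all 4 libraries and blue the fit without rIL-17B replicate 1. With all 4 libraries only the interval of EFNA1 (0.03 to 1.34) lies clear of 0, and those of EFNB2, EPHA3 and EPHA4 are the widest.

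Counted without a test, 2 of the 10 genes (EFNA1 and EFNA5) had both rIL-17B libraries above both PBS libraries, against 31.5% of all genes tested. A further 5 (EFNB1, EFNB2, EPHA2, EPHA3 and EPHA4) had both below, against 27.5% of all genes tested. EFNA5 left the first set when TMM-normalized CPM were used, so that 6 genes remained without overlap. At least 2-fold above both PBS libraries was EFNA1 in rIL-17B replicate 1, against 2.54% of all genes tested, and 5 genes (EFNB1, EFNB2, EPHA3, EPHA4 and EPHB2) were at least 2-fold below there, against 19.2%. With TMM-normalized CPM EFNA1 was 1.87-fold above the higher PBS library, so none of the 10 was 2-fold above, and the 5 below stayed. In rIL-17B replicate 2 none of the 10 was 2-fold above or below, where 0.244% and 1.05% of all genes tested were.

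With each treated library set alone against the PBS pair, edgeR called 8 of the 10 genes in rIL-17B replicate 1 at an adjusted p under 0.05, all but EFNA4 and EPHB4, where 55.1% of all genes tested were called. EFNA1 and EFNA5 were higher there and the other 6 lower. In rIL-17B replicate 2 edgeR called 0 of the 10, where 2.95% of all genes tested were called, and 1 of the 10, EFNA1, had an unadjusted p under 0.05, where 13.7% of all genes tested did. DESeq2 was not run on single treated libraries.

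**Figure D3:**
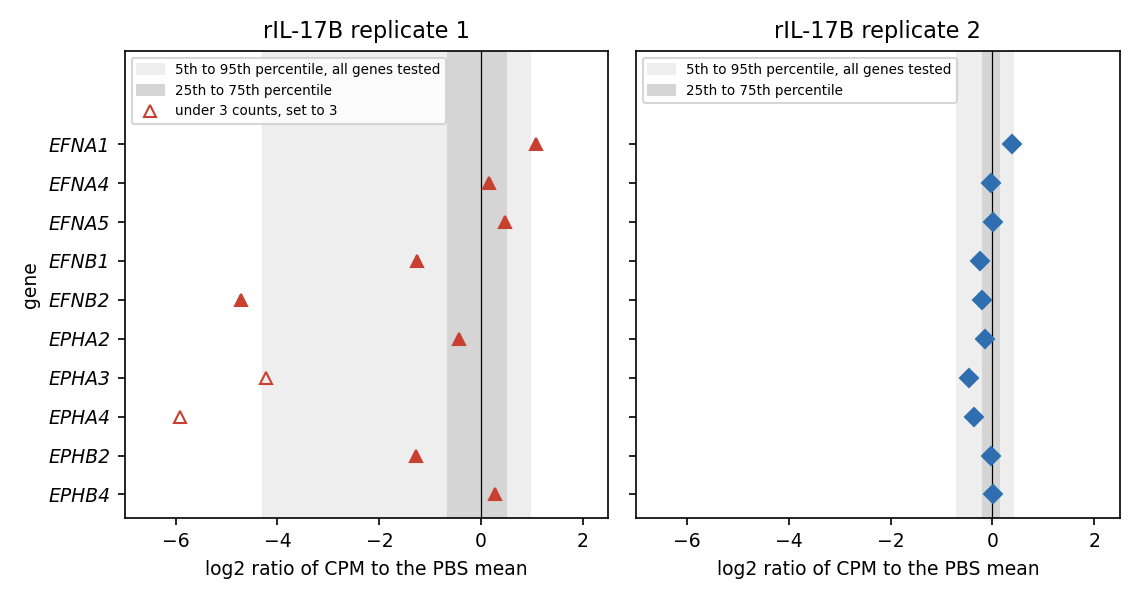
Log2 ratio of CPM to the PBS mean for each gene, with rIL-17B replicate 1 and replicate 2 in separate panels. Grey bands show the spread of all genes tested, the wider band from the 5th to the 95th percentile. Open markers are genes under 3 counts, set to 3 counts, which were EPHA3 and EPHA4 in replicate 1. The pooled-count ratio of EFNB2 was 0.0383 in replicate 1 and 0.864 in replicate 2, and that of EFNA1 was above 1 in both.

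Levels were set side by side per kilobase of exon (RPKM, the CPM divided by the exon length). With PBS the mean level per kilobase was highest for EPHA2 (22.2) and EPHB4 (15.3), followed by EFNA1 (10.5), EFNB2 (6.78), EFNB1 (6.37) and EFNA4 (4.98), and then by EPHB2 (4.11), EFNA5 (3.47), EPHA4 (1.65) and EPHA3 (0.572). The libraries of neighbouring genes did not overlap, but counting intervals did for EFNB2 and EFNB1, EFNB1 and EFNA4, EFNA4 and EPHB2, and EPHB2 and EFNA5, whose order is therefore not settled. The order in rIL-17B replicate 2 was that of PBS. In rIL-17B replicate 1 EFNA1 stood first at 22.0 RPKM, ahead of EPHB4 (18.6) and EPHA2 (16.3), and EFNB2 was at 0.259 RPKM. Per kilobase EFNB2 was 1.04 and 1.09 times EFNB1 with PBS, 0.0980 times in rIL-17B replicate 1 and 1.08 times in rIL-17B replicate 2.

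Summed by class, the ephrin-A ligands were at 18.5 and 19.3 RPKM with PBS and at 32.3 and 22.1 RPKM with rIL-17B. The ephrin-B ligands were at 13.03 and 13.3 RPKM with PBS and at 2.90 and 11.2 RPKM with rIL-17B. Both ligand sums therefore had groups that did not overlap, in opposite directions. Of single genes tested, 31.5% had both rIL-17B libraries above both PBS libraries and 27.5% had both below. In rIL-17B replicate 2 the higher ephrin-A sum was that of EFNA1, at 13.7 RPKM against 10.2 and 10.8 RPKM with PBS. EFNA5 was there at 3.49 RPKM against 3.46 and 3.47 RPKM, and EFNA4 at 4.92 RPKM against 4.93 and 5.04 RPKM. The ephrin-B share of the summed ligand level was 41.3% and 40.8% with PBS, 8.24% in rIL-17B replicate 1 and 33.7% in the other treated library. The EphA receptors were at 22.5 and 26.4 RPKM with PBS and at 16.4 and 21.9 RPKM with rIL-17B, and the EphB receptors EPHB2 and EPHB4 together lay between 19.0 and 20.3 RPKM in all 4 libraries. With all 5 EphB genes of the family the sum was not level, at 25.04 and 29.02 RPKM with PBS and at 20.3 and 23.6 RPKM with rIL-17B. With all 22 genes of the family summed, the ephrin-B share was 44.4% and 45.1% with PBS and 8.08% and 36.4% with rIL-17B.

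**Figure D4:**
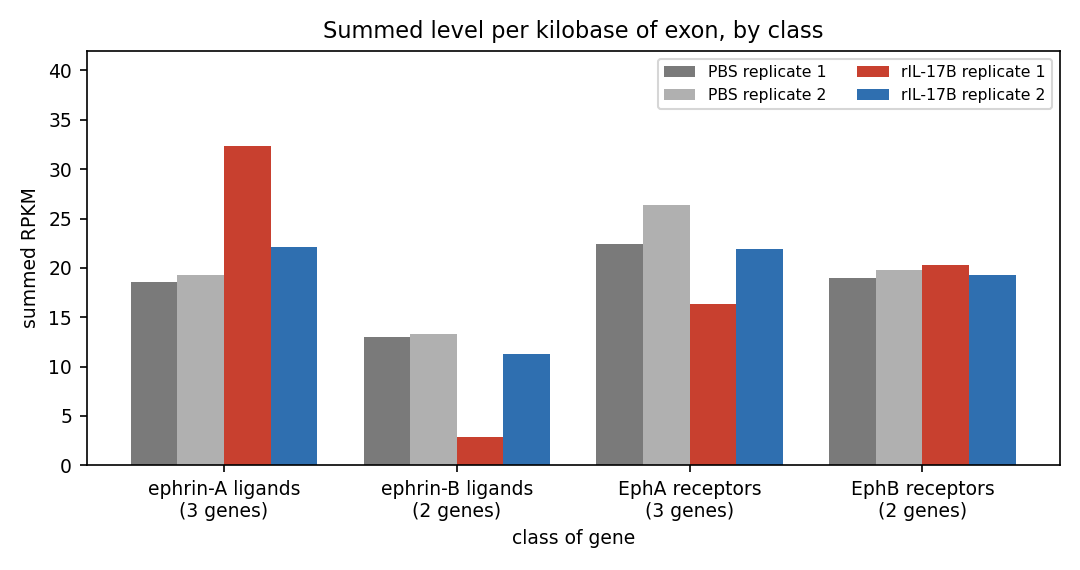
Summed RPKM of the ephrin-A ligands, ephrin-B ligands, EphA receptors and EphB receptors among the 10 genes in each library. The ephrin-B sum was 2.90 RPKM in rIL-17B replicate 1 against 11.2 to 13.3 RPKM in the other 3 libraries, and the sum of EPHB2 and EPHB4 was 19.0 to 20.3 RPKM in all 4, whereas all 5 EphB genes summed to 25.04 and 29.02 RPKM with PBS and to 20.3 and 23.6 RPKM with rIL-17B.

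Of the 12 other genes of the family 11 were listed, 8 reached 1 CPM in a library and 6 were tested. EdgeR called 0 of them at an adjusted p under 0.05 and 0 at an unadjusted p under 0.05. EPHB3, which acts with EPHB2 in intestinal crypts, was at 26.3 and 40.3 CPM with PBS, at 0.137 CPM (2 counts) in rIL-17B replicate 1 and at 18.5 CPM in rIL-17B replicate 2. Its pooled ratios were 0.00420 (0.000508 to 0.0152) and 0.567 (0.498 to 0.644), and its log2 fold change was -1.84 (edgeR adjusted p = 0.681). Without rIL-17B replicate 1 the log2 fold change of EPHB3 was -0.84, with the PBS libraries themselves at 26.3 and 40.3 CPM. That fit holds 1 treated library, which is assumed to vary like the PBS pair, and EPHB3 is 1 of the 6 genes tested here.

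EFNB3, the remaining ephrin-B ligand, was at 8.74 and 11.2 CPM with PBS and at 0.205 (3 counts) and 6.72 CPM with rIL-17B. Like EFNB1 and EFNB2 it was below both PBS libraries in either treated library, as were 27.5% of all genes tested. Of the 12 other family genes 5 were so (EFNB3, EPHA1, EPHA7, EPHB3 and EPHB6), with EPHA1 and EPHB6 not tested. Both treated libraries were above both PBS libraries for 0 of the 12, against 31.5% of all genes tested. EPHA5, a receptor known from neurons, was at 22.4 and 20.8 CPM with PBS and at 29.97 and 22.3 CPM with rIL-17B, so its groups overlapped. EPHA7 was at 2.01 and 4.50 CPM with PBS and at 0.0684 and 1.71 CPM with rIL-17B. Exons of EPHA5 share 535 bases with EPHA5-AS1, and those of EFNA3 share 853 bases with AL691442.1, so the counts of both are uncertain. EFNA3 stayed between 1.19 and 1.71 CPM, and EPHB1, EPHA1 and EPHB6, the last a receptor without kinase activity, reached at most 1.26, 1.07 and 1.09 CPM. The other 4 (EFNA2, EPHA6, EPHA8 and EPHA10) reached at most 0.616 CPM.

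**Figure D5:**
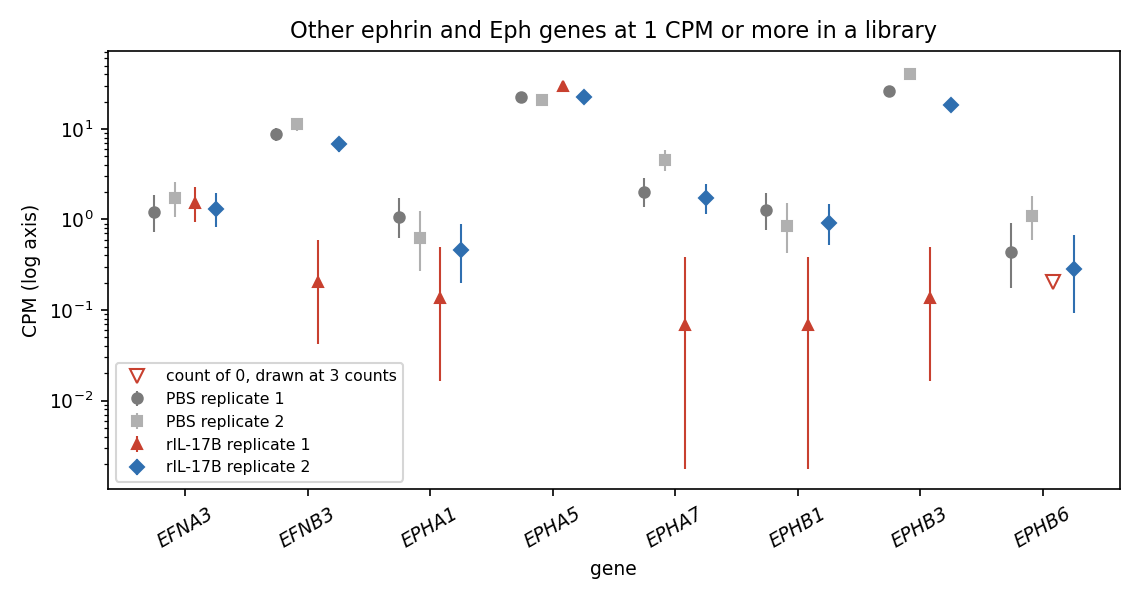
CPM (log axis) of the 8 other ephrin and Eph genes that reached 1 CPM in a library, with 95% Poisson counting intervals as bars and an open triangle at the floor of 3 counts for a count of 0. EPHB3 and EFNB3 were at 2 and 3 counts in rIL-17B replicate 1, while EPHA5 was at 29.97 CPM there.

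Of 68 genes that carry, cut or end ephrin and Eph signals 65 were tested, and edgeR called 0 at an adjusted p under 0.05 and picked 1 at an unadjusted p under 0.05, against 1.38% of all genes tested. That gene was VAV3, which binds activated Eph receptors, at 52.1 and 52.9 CPM with PBS and at 114 and 73.6 CPM with rIL-17B (log2 fold change 0.75, SE 0.21, edgeR unadjusted p = 0.0251, adjusted p = 0.661). Over the 65 genes 30 fold changes were above 0 and 35 below, with a median of -0.03, the same as over all genes. The medians were -0.07 for 22 adaptors and kinases, 0.06 for 8 partners of reverse signalling, -0.32 for 9 proteases and 0.16 for 6 phosphatases.

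The genes named next, among those with the smallest p of their list, each had an edgeR adjusted p of 0.661. Among adaptors they were GRB2, which links receptors to Ras (log2 fold change 0.23), ANKS3 (0.32) and DOK1, a docking protein (-0.76). The partners of reverse signalling were GRIP2 (0.71) and PICK1 (0.21), which bind through PDZ domains, and RGS3, which links ephrin-B to G proteins (-0.76). Among the proteases were NCSTN (-0.27) and PSENEN (-0.55), subunits of a protease that cuts within the membrane, and the phosphatases were ACP1 (0.38), PTPRF (0.14) and PTPRJ (0.14). In the fit without rIL-17B replicate 1 the log2 fold changes were -0.15 for RGS3, -0.33 for DOK1 and 0.39 for GRIP2. There GRB2 was at 0.21, ANKS3 at 0.27, PICK1 at 0.14 and NCSTN at -0.13. PSENEN was at -0.61, ACP1 at 0.19, PTPRF at 0.099 and PTPRJ at 0.072. That fit holds 1 treated library, which is assumed to vary like the PBS pair. MMP14, a membrane protease that cuts EPHA2, was chosen after its values were seen, at 609.8 and 640.4 CPM with PBS, 0.547 CPM (8 counts) in rIL-17B replicate 1 and 502.7 CPM in rIL-17B replicate 2. PTPN13, a phosphatase that binds ephrin-B, was chosen in the same way, whose counts were 784 and 717 in the PBS libraries, 0 in rIL-17B replicate 1 and 664 in the other treated library. Exons of ANKS3, DOK1, GRIP2, PICK1, NCSTN, PSENEN, ACP1 and PTPN13 overlap those of other genes, so their counts are uncertain.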

How the data were processed

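Total RNA of HGC-27 cells had been made into libraries by Smart-seq2 (oligo-dT priming, PCR amplification); the labels' protocol speaks of monocytes, the other labels of HGC-27. The deposited values were raw counts of reads for each gene name in each library. Their processing notes name hg38, Bowtie2 2.2.3, HISAT2 2.1.0, TopHat2 and HTSeq 0.6.0, with roles not given. The annotation and strand setting are not given in the sources used here. Genes not listed were taken as 0. Between 83 and 98 names per library listed more than once were kept once, and 22 to 25 date-like entries (0.228 to 0.244% of counts) were left out.

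CPM were counts divided by the library total. RPKM used exon-union lengths of GENCODE 29 (GRCh38), which gave coordinates, and 97.8% of names were found there once. EdgeR 4.0.16 (limma 3.58.1, R 4.3.3) fitted all genes passing filterByExpr with TMM factors, the quasi-likelihood F test and Benjamini-Hochberg adjustment. DESeq2 1.42.0, other scalings and filters, a replicate block and leave-one-out fits were alternatives. Counting intervals were exact Poisson or exact conditional (95%), computed in Python 3.11.15 with SciPy 1.17.1. The scripts were tested on simulated data. Same-numbered libraries deviated together with a correlation of 0.08 across genes, so the numbers were not taken as pairs. The 10 genes and all lists were chosen with earlier results of these data known, EFNA1 among them. Named were all 10 genes, other family genes at 1 CPM or more in a library, and the 3 genes of each downstream list with the smallest edgeR p. MMP14 and PTPN13 were added after their values were seen. Some genes and 1 list that this rule covers are not reported here.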

Additional observations from a re-analysis of the deposited data

How the results depend on the processing

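The 4 libraries leave 2 residual degrees of freedom, so only large or tight differences could be called. The number of the 10 genes called at an adjusted p under 0.05 was 0 under every alternative scaling, filter and tool. Counts from the fits with 1 treated library are given above beside the shares over all genes tested. At an unadjusted p under 0.05 the count of 1 became 0 with the replicate block and 0 with library totals alone. The replicate block gave EFNA1 a log2 fold change of 0.66 (edgeR adjusted p = 0.675) and changed no call at an adjusted p; the same numbers were not taken as pairs. The count of genes at least 2-fold from both PBS libraries in rIL-17B replicate 1 was 6, where 2.54% of all genes tested were above and 19.2% below. It was 5 with TMM-normalized CPM, where EFNA1 was 1.87-fold above, and 3 at 4-fold. The shares over all genes for these 2 settings are not given here, so the counts are not read against them. Of 98 alternative log2 fold changes of the 10 genes 86 kept direction and side of the threshold, 8 passed it and 4 reversed. EFNA4 was -0.039 with at least 10 counts in every library, and ran from -0.023 to 0.027 over the leave-out fits. EPHB4 ran from -0.000551 to 0.15 over the leave-out fits, with the sign changing without rIL-17B replicate 1. EPHA3 and EPHA4 gave no value with at least 10 counts in every library. Without rIL-17B replicate 2 the log2 fold change of EFNB2 was -4.84 and that of EPHB2 -1.42, and without rIL-17B replicate 1 they were -0.22 and -0.04. Over all genes 161 to 879 had an unadjusted p under 0.05 across the other scalings, filters and tools. Library totals alone moved the median of all genes by 0.071. The ephrin-B share of the ligand level with the longest transcript as length was 37.2% and 36.7% with PBS and 6.83% and 29.6% with rIL-17B. The cause of these changes was not tested.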
